A study of Mus musculus with 20 samples.

Results

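The phagocyte NADPH oxidase was followed through 6 of its genes, *Cybb*, *Cyba*, *Ncf1*, *Ncf4*, *Rac1* and *Rac2*, in bone marrow-derived macrophages. The genes were taken by symbol from the 21963 rows of the count table, and all 6 were present and passed the filter on low counts, which left 11707 genes tested. RNA was sequenced in 20 libraries of 5 groups: WT untreated (n = 4), WT with zymosan (n = 5), WT with zymosan after BAPTA-AM loading (n = 4), *Mcu*-/- untreated (n = 4) and *Mcu*-/- with zymosan (n = 3). Zymosan consists of particles of yeast cell wall that macrophages engulf, and cells were exposed to it for 3 h. BAPTA-AM is a Ca2+ chelator that enters cells. *Mcu* encodes the pore of the mitochondrial Ca2+ uniporter. The *Mcu*-/- macrophages were grown from marrow of mice whose floxed *Mcu* is removed by a Cre driven from *Cx3cr1*, a gene of the monocyte and macrophage lineage, and young mice of both sexes were used. The labels call the libraries biological replicates and do not say which came from separate mice, so the p-values measure the spread between these libraries only.

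The oxidase is an enzyme of phagocytes that moves electrons from cytosolic NADPH across a membrane to oxygen, which makes superoxide inside the phagosome. *Cybb* encodes gp91phox (NOX2), the catalytic subunit, and *Cyba* encodes p22phox, its membrane partner, and together they form cytochrome b558. In a resting cell the cytosolic subunits p47phox (*Ncf1*, the organizer) and p40phox (*Ncf4*, which binds phosphoinositides of the phagosome) are held apart from the cytochrome, and after recognition of a particle they move to the membrane together with a GTP-bound Rac, either the widely expressed Rac1 or the haematopoietic Rac2. Loss of the catalytic or the organizer subunit causes chronic granulomatous disease, in which phagocytes kill bacteria and fungi poorly.

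Levels are given in CPM, read counts relative to a library size scaled with edgeR's TMM factors. Total counts were 14.4 to 24.0 M per library, and a call is an edgeR quasi-likelihood adjusted p under 0.05 over all genes tested. *Mcu* had 6.10 to 9.54 CPM in the WT libraries and 2.63 to 4.05 CPM in the *Mcu*-/- libraries, without overlap. All 9 macrophage markers examined had at least 10 CPM in every group. *Mcu*-/- untreated replicate 4 stood apart: its mean chi-square per gene against replicates 1 to 3 was 217 to 225, and over the other replicate pairs it was 1.60 to 6.53. It was kept. Values of the 6 oxidase genes that move without it are also given without it, and other genes are given with it unless stated. The biological coefficient of variation was 12.4% with it and 3.56% without it.

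On mm10 (GENCODE M21), *Cybb* (ENSMUSG00000015340) lies on chromosome X from 9435252 to 9487771 on the minus strand, and *Cyba* (ENSMUSG00000006519) on chromosome 8 from 122424776 to 122432930 on the minus strand. *Ncf1* (ENSMUSG00000015950) is on chromosome 5 from 134220053 to 134229625 and *Rac1* (ENSMUSG00000001847) on the same chromosome from 143503634 to 143528036, both on the minus strand. *Ncf4* (ENSMUSG00000071715) spans 78244801 to 78262580 of chromosome 15 on the plus strand, and *Rac2* (ENSMUSG00000033220) spans 78559167 to 78572783 of it on the minus strand. Exons of *Daglb* on the opposite strand cover 51.4% of the exonic bases of *Rac1*, and exons of *Gtf2ird2* cover 11.1% of those of *Ncf1*. The strand setting of the counting is not given in the sources used here, so reads on these stretches cannot be assigned to 1 of the genes with certainty.

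Promoter sequences of *Cybb*, *Cyba* and *Ncf1*, 3 of the 6 genes, were in the RefSeq table used (GRCm38.p6). The 250 bases before the start site are shown because these genes responded differently to zymosan (below), and capitals mark matches to motifs of factors tied to oxidase or interferon genes. The *Cybb* window is chrX:9469325-9469574, the *Cyba* window chr8:122432941-122433190 and the *Ncf1* window chr5:134229626-134229875, all read on the minus strand. RefSeq and GENCODE M21 place the start of *Cybb* differently, so its window lies before the RefSeq start but inside the M21 span given above.
Cybb: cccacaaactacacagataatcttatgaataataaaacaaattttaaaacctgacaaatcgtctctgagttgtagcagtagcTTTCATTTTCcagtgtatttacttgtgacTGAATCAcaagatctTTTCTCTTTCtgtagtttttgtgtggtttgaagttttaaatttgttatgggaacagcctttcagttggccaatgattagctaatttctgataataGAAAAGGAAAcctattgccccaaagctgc
Cyba: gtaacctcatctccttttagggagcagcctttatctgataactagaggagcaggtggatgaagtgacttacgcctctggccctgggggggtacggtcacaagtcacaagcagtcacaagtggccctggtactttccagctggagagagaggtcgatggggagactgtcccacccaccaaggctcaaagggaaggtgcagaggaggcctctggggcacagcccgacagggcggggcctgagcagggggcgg
Ncf1: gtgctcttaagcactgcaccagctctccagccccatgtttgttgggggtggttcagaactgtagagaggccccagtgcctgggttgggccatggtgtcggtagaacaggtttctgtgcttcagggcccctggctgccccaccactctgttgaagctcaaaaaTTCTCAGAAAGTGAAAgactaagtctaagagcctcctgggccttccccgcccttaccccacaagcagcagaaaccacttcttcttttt

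The *Cybb* window held 3 matches to the interferon-stimulated response element type (GAAA, any 2 bases, GAAA), which begin 168, 124 and 29 bases before the start, and 1 match to the AP-1 type (TGANTCA). The *Ncf1* window held 1 match to the STAT type (TTCNNNGAA), which overlaps by 3 bases with 1 match to the interferon type. None of the 6 motifs searched matched the *Cyba* window. Both strands were searched, also for the PU.1 type (GAGGAA), the CRE core (TGACG) and the NF-kB motif, which matched none of the 3 windows. Over 32817 promoter windows of this length, 2.97% held the interferon type, 6.75% TGANTCA, 7.01% TTCNNNGAA, 23.3% GAGGAA, 17.7% TGACG and 3.90% the NF-kB motif. A match describes the letters and is not a measured binding site.

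Levels of different genes were compared as CPM per kb of exon. In untreated WT macrophages *Rac2* was the most abundant of the 6 genes, at 542 ± 15.2 CPM per kb (SD, n = 4), followed by *Cyba* at 376 ± 19.0, *Ncf1* at 158 ± 2.51, *Rac1* at 95.1 ± 2.29, *Cybb* at 77.3 ± 0.997 and *Ncf4* at 61.5 ± 1.25. The catalytic subunit was thus among the lowest before stimulation, and the ranges of the 6 genes did not overlap in this group. With zymosan *Cybb* reached 332 ± 4.51 CPM per kb in WT (n = 5) and 400.6 ± 6.29 in *Mcu*-/- macrophages (n = 3). In the latter it was the highest of the 6 genes, above *Cyba* at 363 ± 9.89 and *Rac2* at 256 ± 8.16. *Ncf4* was the lowest in every group, between 54.0 and 63.6 CPM per kb on average. The length of *Rac1* includes the stretch shared with *Daglb*. Each length joins the exons of all annotated transcripts of a gene, 5808 bases for *Cybb*. The transcripts in use were not determined, so the order of genes with near values may depend on this choice.

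**Figure D1:**
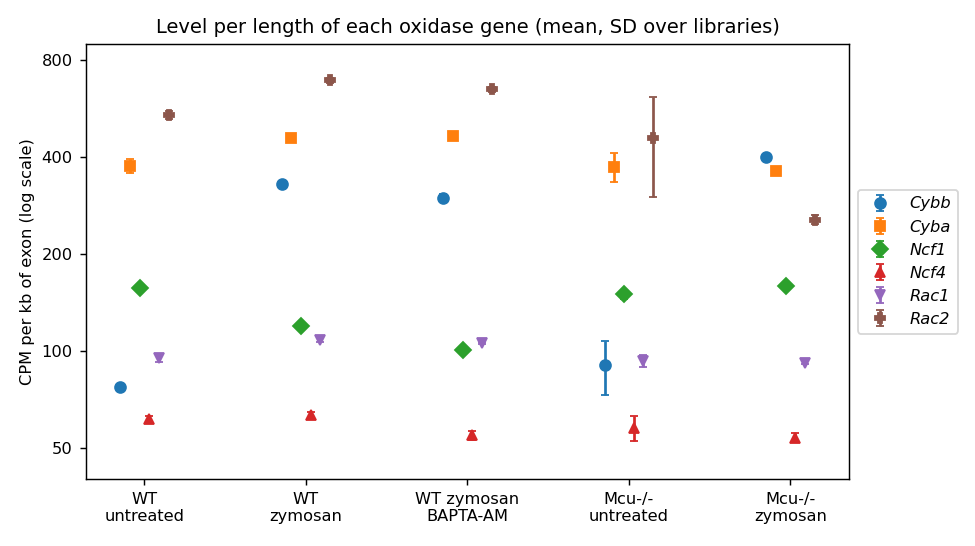
Level per length of each oxidase gene, as mean CPM per kb of exon on a log axis, in the 5 groups; bars are SD over libraries. *Rac2* is the highest gene in the WT groups, and *Cybb* moves from the lower ranks to the highest in zymosan-stimulated *Mcu*-/- macrophages.

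In WT macrophages zymosan raised *Cybb* 4.29-fold and lowered *Ncf1*, and the remaining members differed by 0.36 or less in log2. *Cybb*, the catalytic subunit, had 446, 450.5, 457 and 444 CPM in the untreated and 1939, 1923, 1912, 1962 and 1893 CPM in the zymosan libraries. Every stimulated library lay far above every untreated one, and the difference was 4.29-fold, or 2.10 in log2 (95% interval 1.93 to 2.27, edgeR adjusted p = 2.89e-14). *Ncf1*, the organizer, had 575, 577, 589.9 and 568 CPM untreated and 423, 437, 438, 450.0 and 442 CPM with zymosan. It was lower in each stimulated library, with a difference of −0.40 in log2 (SE 0.03, edgeR adjusted p = 2.25e-09). These 2 changes kept their direction under each scaling of the library sizes.

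Sums over marker genes differed with zymosan in WT as well. In the neutrophil and B cell lists 1 marker alone reached 10 CPM, and in the fibroblast and dendritic cell lists none did. The macrophage markers summed to 13693 to 14060 CPM in the untreated and 16430 to 16733 CPM in the stimulated libraries, the neutrophil markers to 98.1 to 106 and 193 to 204 CPM, and the B cell markers to 53.6 to 55.8 and 30.8 to 37.4 CPM. The fibroblast markers summed to 2.67 to 4.11 and 4.66 to 6.63 CPM, and the dendritic cell markers to at most 1.1 CPM untreated and 9.05 to 9.64 CPM with zymosan. Beside 32.4% of all genes called higher and 36.8% lower, 4 of 9 macrophage markers were higher and 1 lower. Of 4 tested neutrophil markers 1 was higher, as was 1 of 2 dendritic cell markers. Of 5 B cell markers 1 was lower, and none of 3 fibroblast markers passed. Higher calls numbered 8 for macrophage, 3 for neutrophil and 3 for fibroblast markers without *Mcu*-/- untreated replicate 4, beside 78.5% of all genes. Their part in the differences of the oxidase genes was not tested.

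*Cyba*, the membrane partner, had 412, 377, 371 and 402 CPM untreated and 499.6, 477, 465, 471 and 478 CPM with zymosan, a difference of 0.29 in log2 (SE 0.06, edgeR adjusted p = 0.000141). *Rac1* had 417, 440.2, 431 and 421 CPM untreated and 488, 481, 497, 489 and 480.0 CPM with zymosan, a difference of 0.19 in log2 (SE 0.03, edgeR adjusted p = 6.66e-05). *Rac2* had 1658, 1736, 1707 and 1632 CPM untreated and 2135, 2200, 2189, 2128 and 2127 CPM with zymosan. Its groups did not overlap, but the log2 fold change of 0.36 (SE 0.16) missed the threshold (edgeR adjusted p = 0.0605), and without *Mcu*-/- untreated replicate 4 it passed (SE 0.02, edgeR adjusted p = 3.48e-16). *Ncf4* had 122 to 127.5 CPM untreated and 126 to 133 CPM with zymosan, and these ranges overlapped (log2 fold change 0.05, 95% interval −0.05 to 0.15, edgeR adjusted p = 0.398). For the small changes of *Cyba*, *Rac1*, *Rac2* and *Ncf4* the direction depended on the scaling, since with library totals the values turned to −0.20, −0.30, −0.13 and −0.44. The median of all genes moved with it, from −0.04 with TMM to −0.54 with library totals. Relative to that median the 4 genes were higher by 0.34, 0.23, 0.40 and 0.09 with TMM and by 0.34, 0.23, 0.40 and 0.09 with library totals. A change of scaling moves all genes by nearly the same amount, so this equality follows from the method and does not settle the direction.

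In all, 4 of the 6 members passed in WT, 3 higher and 1 lower, beside 69.1% of all genes tested (32.4% higher and 36.8% lower). With library totals 5 passed, 1 higher and 4 lower, where 9852 of the 11707 genes were called in either direction. The groups did not overlap for 5 members and for 69.5% of all genes. Without *Mcu*-/- untreated replicate 4, 5 members passed beside 78.5% of all genes. The members' median log2 fold change was 0.24, and that of all genes was −0.04. The share of members called was thus close to that among all genes.

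**Figure D2:**
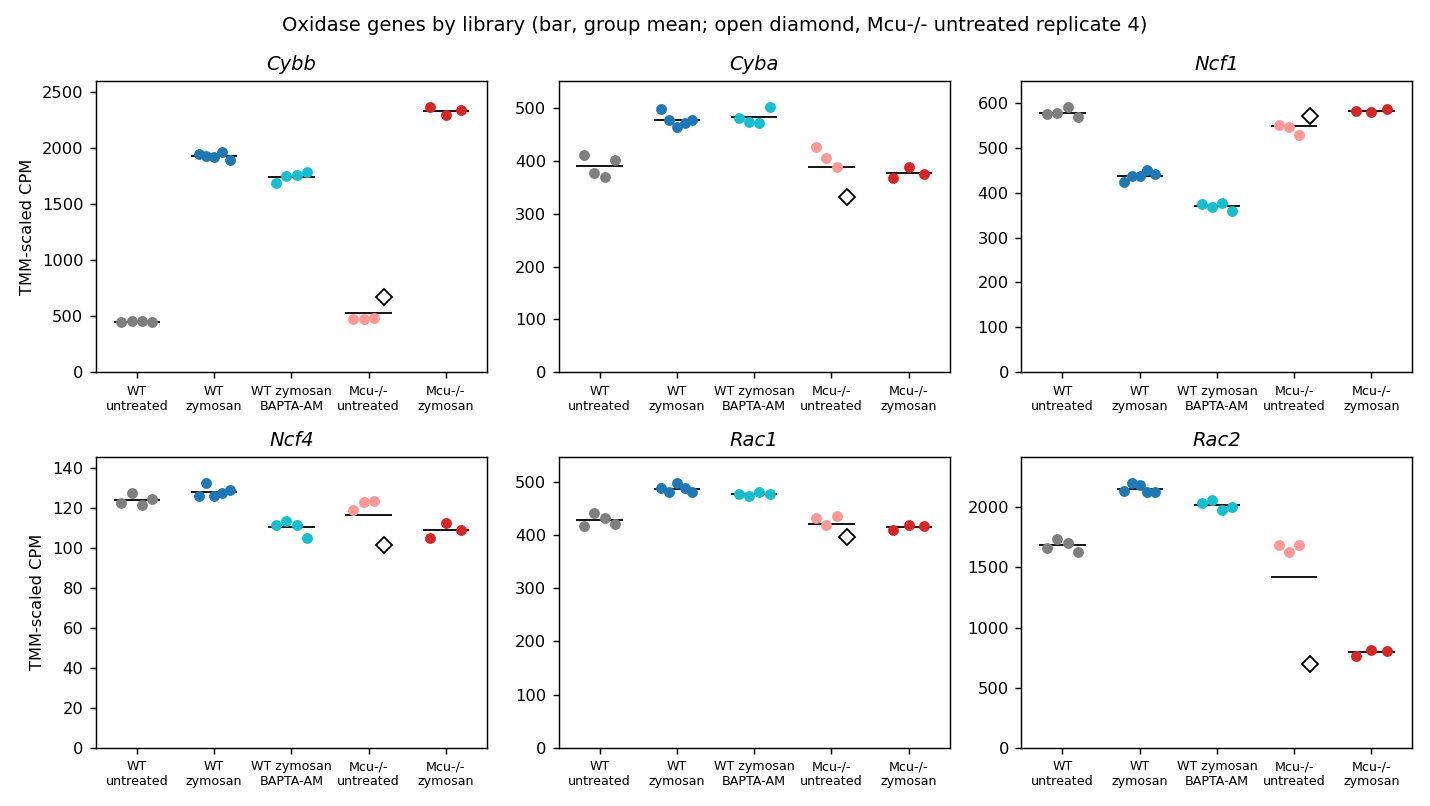
TMM-scaled CPM of the 6 genes in each library by group, on axes from 0; bars are group means and the open diamond is *Mcu*-/- untreated replicate 4. *Cybb* is high in all stimulated libraries, *Ncf1* is low in stimulated WT libraries only, and *Rac2* is low in the stimulated *Mcu*-/- libraries (767 to 816 CPM) and in the open diamond (694 CPM).

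With zymosan, *Mcu*-/- macrophages had more *Cybb* and *Ncf1* and less *Cyba*, *Ncf4*, *Rac1* and *Rac2* RNA than WT. All 6 members were called, 2 of them higher, where 62.2% of all genes tested were called (31.8% higher and 30.3% lower). Without *Mcu*-/- untreated replicate 4 the same 6 were called, beside 70.1% of all genes. No member had overlapping values in these groups, nor did 64.0% of all genes, and the exact two-sided permutation p of each was 0.0179, the smallest that 3 against 5 libraries can give. The largest difference was in *Rac2*, the haematopoietic GTPase, with 767, 816 and 804 CPM in *Mcu*-/- against 2127 to 2200 CPM in WT, a difference of −1.44 in log2 (SE 0.19, 95% interval −1.83 to −1.04, edgeR adjusted p = 5.17e-06). *Mcu*-/- untreated replicate 4 had 694 CPM of *Rac2* without zymosan, and untreated replicates 1 to 3 had 1626 to 1688 CPM (below). *Ncf1* had 581, 579 and 586 CPM against 423 to 450.0 CPM, which put it at the level of untreated WT libraries (568 to 589.9 CPM). Its log2 fold change against stimulated WT was 0.41 (SE 0.04, edgeR adjusted p = 3.51e-08).

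*Cybb* had 2358, 2287 and 2336 CPM in *Mcu*-/- against 1893 to 1962 CPM in WT, a difference of 0.27 in log2 (SE 0.08, edgeR adjusted p = 0.00848). Its partner *Cyba* went the other way, with 368, 388 and 376 CPM against 465 to 499.6 CPM (log2 fold change −0.34, SE 0.06, edgeR adjusted p = 0.000134). *Ncf4* had 105, 113 and 109 CPM against 126 to 133 CPM (log2 fold change −0.24, SE 0.05, edgeR adjusted p = 0.000901). *Rac1* had 409.7, 419 and 416 CPM against 480.0 to 497 CPM (log2 fold change −0.23, SE 0.04, edgeR adjusted p = 4.17e-05). The median of the 6 values was −0.23, and that of all genes 0.02.

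Markers moved with this comparison. The summed CPM of the 9 macrophage markers was 10681 to 11044 in stimulated *Mcu*-/- and 16430 to 16733 in stimulated WT libraries, and 4 of the 9 were called higher and 4 lower. The 5 fibroblast markers summed to 44.0 to 52.3 CPM against 4.66 to 6.63 CPM, with all 3 tested markers higher and none of the 5 at 0 in every library of either group. The 12 neutrophil markers summed to 76.4 to 83.1 CPM against 193 to 204 CPM, of which 1 marker alone reached 10 CPM, and 4 of them were at 0 in every stimulated *Mcu*-/- library. The 5 B cell markers summed to 13.0 to 13.6 CPM against 30.8 to 37.4 CPM, where again 1 marker alone reached 10 CPM, and 1 of the 5 was called lower. The 7 T or NK cell markers, the 6 mast cell, basophil or eosinophil markers and the 5 erythroid markers each summed to under 6 CPM in every library, and the 5 dendritic cell markers to 10.4 to 11.5 CPM in *Mcu*-/- and 9.05 to 9.64 CPM in WT. Their part in the differences of the oxidase genes was not tested, and in these bulk samples fewer cells of a type and less RNA per cell cannot be told apart.

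Within *Mcu*-/- macrophages zymosan also raised *Cybb*, and the sizes of the 2 responses are compared below. *Rac2* was lower with zymosan than in untreated replicates 1 to 3 and not lower than in untreated replicate 4. *Cybb* rose from 469.7, 471, 485 and 673 CPM to 2287 to 2358 CPM (log2 fold change 2.15, SE 0.09, edgeR adjusted p = 9.12e-14). *Rac2* had 1688, 1626, 1688 and 694 CPM untreated against 767 to 816 CPM with zymosan (log2 fold change −0.84, SE 0.19, edgeR adjusted p = 0.000612), and the ranges overlap only because of replicate 4. Without that library the *Rac2* value was −1.07 (SE 0.03, edgeR adjusted p = 8.45e-29). In the fit of the 2 *Mcu*-/- groups alone it was −0.83 and missed the threshold (edgeR adjusted p = 0.0527). The other 4 members did not pass with all libraries, with values of −0.04 for *Cyba*, 0.08 for *Ncf1*, −0.10 for *Ncf4* and −0.02 for *Rac1*. With DESeq2 size factors *Cyba* and *Rac1* stood at 0.00 and 0.03, and *Ncf1* passed at 0.13 (edgeR adjusted p = 0.00459). So 2 members of 6 were called, 1 higher and 1 lower, beside 73.8% of all genes (34.3% higher and 39.4% lower). With library totals all 6 were called, 1 higher and 5 lower, with *Cyba* at −0.57, *Ncf4* at −0.63, *Rac1* at −0.54 and *Rac2* at −1.37, where the median of all genes was −0.58. That scaling called 9877 of the 11707 genes in either direction. The groups did not overlap for *Cybb* and *Ncf1*, as for 61.6% of all genes.

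Without replicate 4, 5 members were called beside 81.5% of all genes. *Cyba* (log2 fold change −0.11, edgeR adjusted p = 0.0102) and *Ncf4* (−0.16, edgeR adjusted p = 0.000214) were then also lower and *Ncf1* was higher (0.10, edgeR adjusted p = 0.00217), while *Rac1* stayed outside the calls (−0.05, edgeR adjusted p = 0.145). With library totals and all libraries, *Ncf1* turned to −0.44 as the median of all genes went from −0.06 to −0.58. Relative to that median *Ncf1* was higher by 0.14 in both scalings, which follows from the shift that all genes share and does not settle its direction.

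The zymosan responses of the genotypes were compared by the interaction term. It was called for *Rac2* (log2 −1.20, SE 0.25, edgeR adjusted p = 0.00153), *Ncf1* (0.48, SE 0.05, edgeR adjusted p = 1.20e-06), *Cyba* (−0.33, SE 0.09, edgeR adjusted p = 0.00619) and *Rac1* (−0.21, SE 0.05, edgeR adjusted p = 0.00501). These were 4 of 6 members, 1 higher and 3 lower, beside 35.2% of all genes (15.2% higher and 20% lower). For *Cybb* the difference of responses was 0.05 (95% interval −0.20 to 0.29, edgeR adjusted p = 0.775) and for *Ncf4* −0.15 (95% interval −0.30 to 0.01, edgeR adjusted p = 0.122). Without replicate 4 all 6 members were called beside 60.3% of all genes, with 0.19 for *Cybb* (edgeR adjusted p = 2.05e-05), −0.21 for *Ncf4* (edgeR adjusted p = 0.000372) and −1.42 for *Rac2* (edgeR adjusted p = 4.54e-28).

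**Figure D3:**
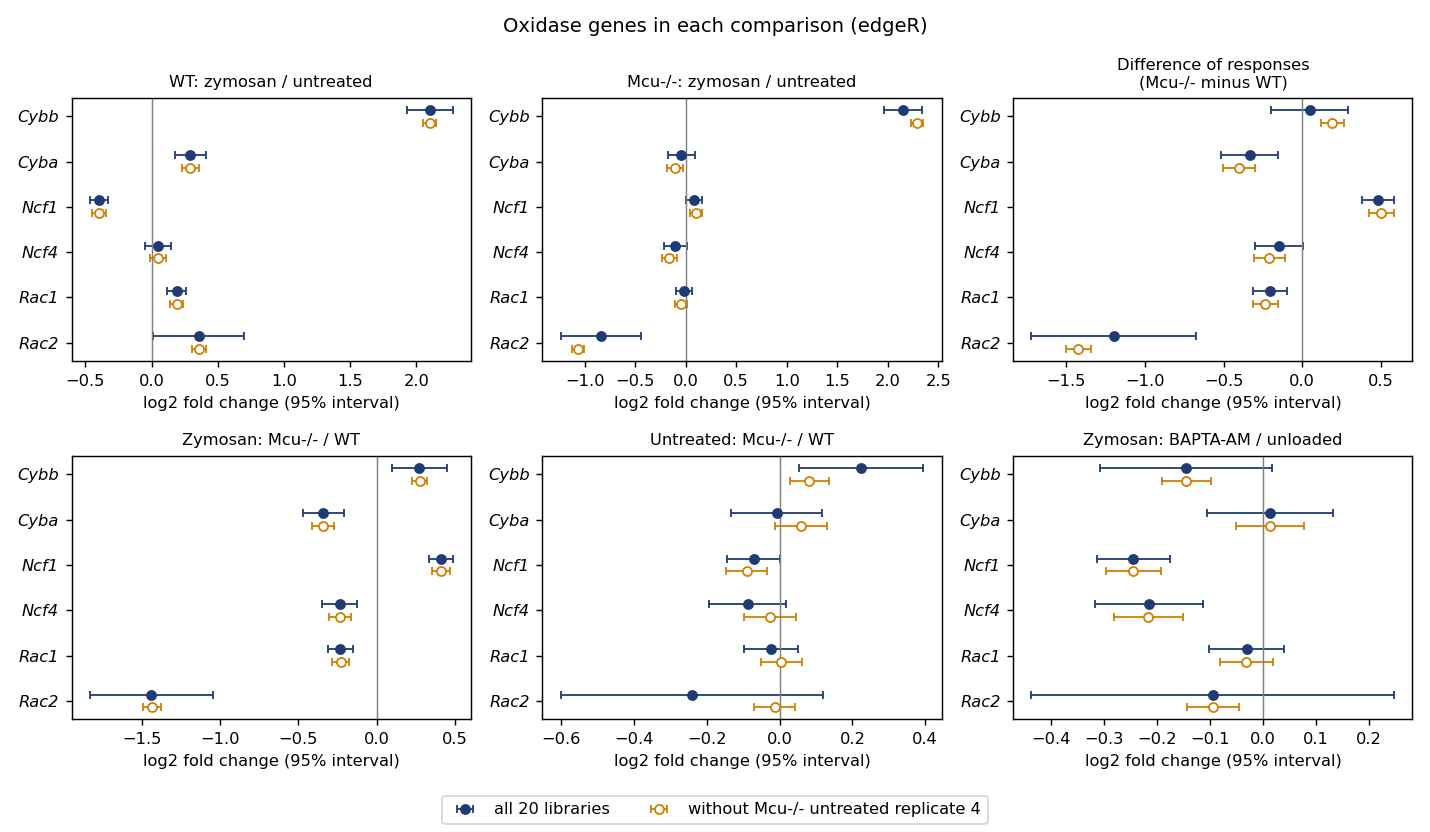
Log2 fold changes of the 6 genes with 95% intervals in the 6 comparisons, with all 20 libraries (filled) and without *Mcu*-/- untreated replicate 4 (open). The open intervals are narrower, most of all for *Rac2*, and lie on the same side of 0 as the filled ones wherever the filled interval leaves 0 out.

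Before stimulation no member was called between *Mcu*-/- and WT by edgeR or by DESeq2, where edgeR called 0.35% of all genes. At an unadjusted p under 0.05 edgeR gave 1 member, *Cybb*, and 14.9% of all genes. *Cybb* had 469.7 to 673 CPM in *Mcu*-/- and 444 to 457 CPM in WT without overlap, as 7.09% of all genes, and the log2 fold change was 0.22 (95% interval 0.05 to 0.40, edgeR adjusted p = 0.236), and 0.08 without replicate 4 (edgeR adjusted p = 0.0847). For the other members the log2 fold change was between −0.24 (*Rac2*, 95% interval −0.60 to 0.12) and −0.01 (*Cyba*, 95% interval −0.13 to 0.12), and the ranges of the groups overlapped. Without replicate 4 the value of *Rac2* was −0.01 and that of *Ncf1* −0.09 (edgeR adjusted p = 0.0673). The *Ncf1* ranges then no longer overlapped, with 529 to 551 CPM in *Mcu*-/- and 568 to 589.9 CPM in WT. Again no member was called, beside 3.35% of all genes.

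Replicate 4 accounted for most of the spread of the untreated *Mcu*-/- group. It had 694 CPM of *Rac2* against 1668 ± 35.7 CPM in replicates 1 to 3, a ratio of 0.416, and 673 CPM of *Cybb* against 475 ± 8.71 CPM, a ratio of 1.42. *Cyba* was at 333 against 407 ± 19.4 CPM, *Ncf4* at 101.5 against 122 ± 2.57 CPM, *Rac1* at 395 against 429 ± 8.61 CPM and *Ncf1* at 572 against 542 ± 11.6 CPM. Of all genes tested, 11.8% shifted more than *Rac2* in absolute log2 between this library and the mean of the other 3. Relative to the WT untreated mean, 5 of the 6 members in replicate 4 lay on the side on which stimulated *Mcu*-/- libraries lay relative to stimulated WT, *Ncf1* (−0.01) being the exception, against 2, 4 and 3 members in replicates 1 to 3. Over all genes this share was 78.6% for replicate 4 and 49.7% to 50.8% for the others. The marker sums of replicate 4 were 8802 CPM for macrophages (14806 to 15149 CPM in replicates 1 to 3), 28.3 CPM for fibroblasts (1.1 to 2.81 CPM), 65.8 CPM for neutrophils (97.9 to 101 CPM) and 18.8 CPM for B cells (53.5 to 55.4 CPM), and 8 of the 12 neutrophil markers were at 0. Of the neutrophil and of the B cell markers, 1 alone reached 10 CPM.

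Against replicate 4 alone, the stimulated *Mcu*-/- mean was 3.46 times higher for *Cybb* and stood at a ratio of 1.13 for *Cyba*, 1.02 for *Ncf1*, 1.07 for *Ncf4*, 1.05 for *Rac1* and 1.15 for *Rac2*. Against replicates 1 to 3 the ratios were 4.90, 0.927, 1.07, 0.893, 0.968 and 0.477 in the same order, and in WT they were 4.29, 1.22, 0.759, 1.03, 1.14 and 1.28. The direction for *Rac2*, *Cyba*, *Ncf4* and *Rac1* in *Mcu*-/- macrophages thus differed with the untreated libraries taken as the reference, and with 1 library there is no test of this.

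**Figure D4:**
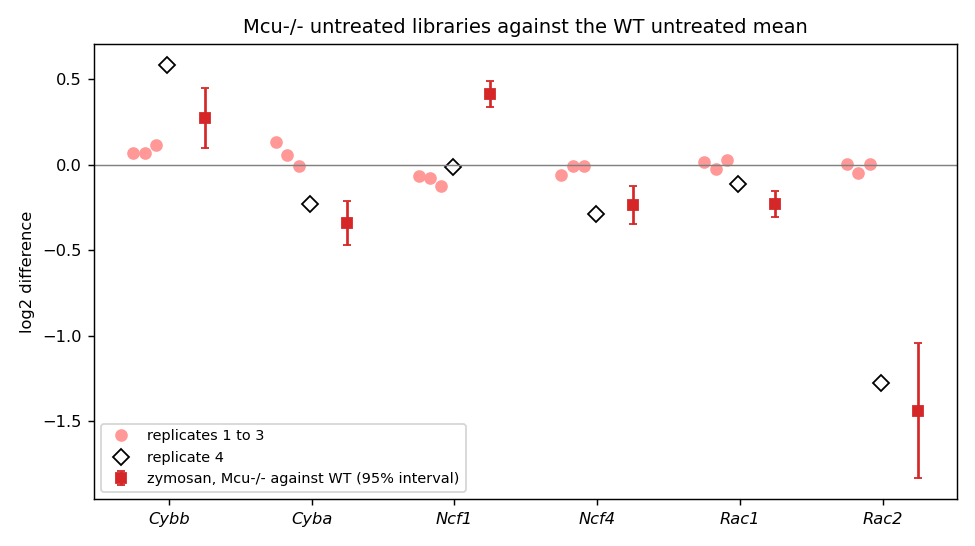
Log2 difference of each untreated *Mcu*-/- library from the WT untreated mean for the 6 genes (circles, replicates 1 to 3; open diamonds, replicate 4), beside the difference of *Mcu*-/- and WT with zymosan (squares, 95% interval). Replicates 1 to 3 lie near 0, and replicate 4 lies at −1.28 for *Rac2* and 0.58 for *Cybb*.

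BAPTA-AM loading lowered *Ncf1* and *Ncf4*, the cytosolic subunits, in stimulated WT macrophages. *Ncf1* had 375, 367, 377 and 359.6 CPM in BAPTA-AM loaded and 423 to 450.0 CPM in unloaded libraries, a difference of −0.24 in log2 (SE 0.03, edgeR adjusted p = 5.92e-05). *Ncf4* had 112, 113.5, 112 and 105 CPM against 126 to 133 CPM, a difference of −0.22 in log2 (SE 0.05, edgeR adjusted p = 0.00571), and with library totals it was −0.15 and missed the threshold (edgeR adjusted p = 0.0771). These were 2 of 6 members, both lower, beside 12.8% of all genes called (6.43% higher and 6.33% lower).

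*Cybb* had 1686, 1745, 1756 and 1782 CPM against 1893 to 1962 CPM, and *Rac2* had 2037, 2061, 1978 and 2001 CPM against 2127 to 2200 CPM. For both genes the groups did not overlap, as for 24.3% of all genes. Their log2 fold changes of −0.14 (edgeR adjusted p = 0.260) and −0.09 (edgeR adjusted p = 0.802) missed the threshold with all libraries and passed without *Mcu*-/- untreated replicate 4 (edgeR adjusted p = 3.28e-06 and 0.00251), where 31.8% of all genes were called. *Cyba* differed by 0.01 (95% interval −0.10 to 0.13, edgeR adjusted p = 0.930) and *Rac1* by −0.03 (95% interval −0.10 to 0.04, edgeR adjusted p = 0.649), and their ranges overlapped, with values of −0.01 and −0.05 with DESeq2 size factors and 0.07 and 0.03 with library totals. The macrophage marker sum was 14614 to 14876 CPM in BAPTA-AM loaded against 16430 to 16733 CPM in unloaded libraries. Of the 9 markers 2 were called lower, and 8 without *Mcu*-/- untreated replicate 4. The neutrophil markers summed to 157 to 168 against 193 to 204 CPM, and the dendritic cell markers to 5.46 to 7.24 against 9.05 to 9.64 CPM. The B cell and the fibroblast sums overlapped. The part of these markers in the differences of the oxidase genes was not tested. *Cybb* and *Ncf1* were higher in *Mcu*-/- than in WT and *Ncf1* lower with BAPTA-AM, whereas *Ncf4* was lower in both comparisons, which share the unloaded WT libraries.

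Over the 5 groups, *Cybb* was ordered from *Mcu*-/- zymosan (2327 ± 36.5 CPM) over WT zymosan (1926 ± 26.2), BAPTA-AM loaded (1742 ± 40.4) and *Mcu*-/- untreated (525 ± 99.0) to WT untreated (449 ± 5.79). Of these neighbours, WT zymosan and BAPTA-AM loaded, and the untreated groups, did not pass the test. *Ncf1* was highest in *Mcu*-/- zymosan (582 ± 3.51 CPM) and WT untreated (577 ± 9.18), which did not pass as a pair (edgeR adjusted p = 0.778). *Mcu*-/- untreated (549.7 ± 17.6) did not pass against either, and WT zymosan (438 ± 9.76) and BAPTA-AM loaded (369.8 ± 7.93) each passed against the group above. *Rac2* went from WT zymosan (2156 ± 35.8 CPM) and BAPTA-AM loaded (2019 ± 37.1) over WT untreated (1683 ± 47.0) and *Mcu*-/- untreated (1424 ± 488) to *Mcu*-/- zymosan (796 ± 25.3), and with all libraries only the last step between neighbours passed. Without *Mcu*-/- untreated replicate 4, the steps of *Rac2* from WT zymosan to BAPTA-AM loaded (edgeR adjusted p = 0.00251) and from there to WT untreated (edgeR adjusted p = 1.03e-11, against 0.189 with all libraries) passed too, as did that of *Cybb* from WT zymosan to BAPTA-AM loaded (edgeR adjusted p = 3.28e-06). *Cyba* was at 483 ± 13.2 and 478 ± 12.9 CPM in BAPTA-AM loaded and WT zymosan and at 377 to 391 CPM on average in the other groups. *Rac1* had 487 ± 6.84 and 477 ± 3.53 CPM in WT zymosan and BAPTA-AM loaded and 415 to 427 CPM on average in the others. *Ncf4* lay between 109 ± 3.81 CPM in *Mcu*-/- zymosan and 128 ± 2.75 CPM in WT zymosan.

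The proportions of the subunits were read as count ratios within each library, which do not depend on the library size. The log2 ratio of *Cybb* to *Cyba*, both chains of the cytochrome, was 0.20 ± 0.09 in untreated WT (n = 4), 2.01 ± 0.04 in stimulated WT (n = 5), 1.85 ± 0.04 in BAPTA-AM loaded (n = 4) and 2.62 ± 0.06 in stimulated *Mcu*-/- libraries (n = 3). The difference of 1.81 between stimulated and untreated WT had an exact two-sided permutation p of 0.00794 (adjusted over 15 tests, 0.0298), that of 0.61 between the genotypes with zymosan an exact p of 0.0179 (adjusted 0.0335), and that of −0.16 with BAPTA-AM an exact p of 0.00794 (adjusted 0.0298). Untreated *Mcu*-/- libraries had 0.14, 0.21, 0.32 and, in replicate 4, 1.02.

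The log2 ratio of *Ncf1* to *Ncf4*, both cytosolic subunits, fell from 2.22 ± 0.05 to 1.77 ± 0.04 with zymosan in WT (exact p = 0.00794, adjusted 0.0298) and was 2.42 ± 0.05 in stimulated *Mcu*-/- libraries (exact p against WT = 0.0179, adjusted 0.0335). BAPTA-AM loaded libraries had 1.74 ± 0.03, a difference of −0.03 from unloaded ones that did not pass (exact p = 0.262, adjusted 0.302). The log2 ratio of *Rac2* to *Rac1* was 1.98 ± 0.02 in untreated WT, 2.15 ± 0.03 in stimulated WT, 2.08 ± 0.04 in BAPTA-AM loaded and 0.94 ± 0.03 in stimulated *Mcu*-/- libraries. The genotype difference of −1.21 with zymosan had an exact p of 0.0179 (adjusted 0.0335), and the rise of 0.17 in WT an exact p of 0.00794 (adjusted 0.0298). In untreated *Mcu*-/- libraries the ratio was 1.97, 1.96 and 1.95 in replicates 1 to 3 and 0.81 in replicate 4. These p-values, apart from that of *Rac2* to *Rac1* with BAPTA-AM (0.0159), are the smallest these group sizes allow wherever the adjusted value is under 0.05.

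**Figure D5:**
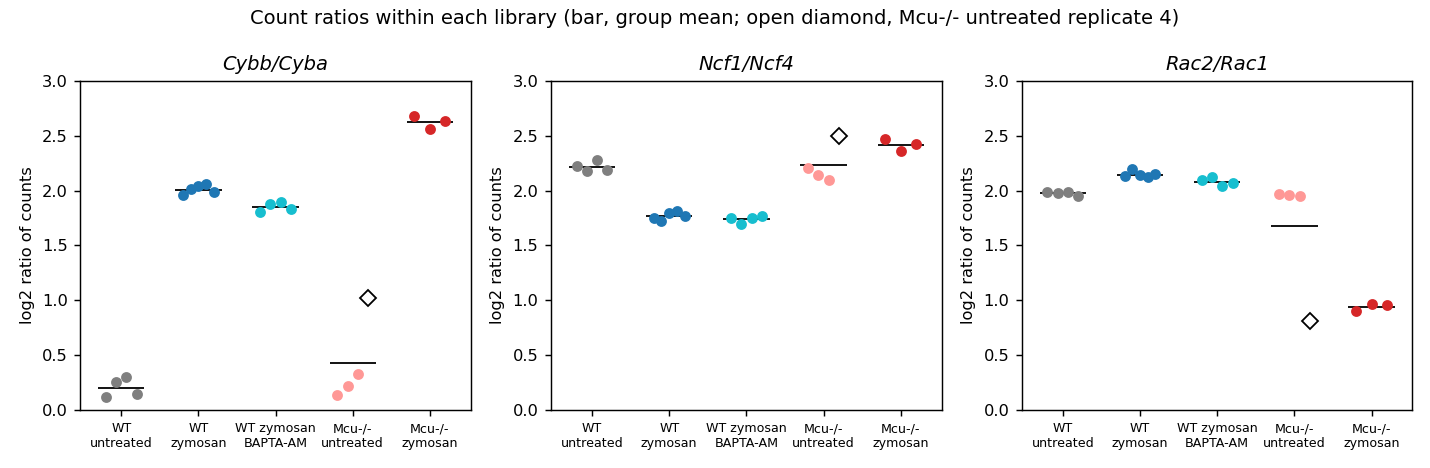
Log2 ratio of counts within each library for *Cybb* to *Cyba*, *Ncf1* to *Ncf4* and *Rac2* to *Rac1* by group; bars are group means and the open diamond is *Mcu*-/- untreated replicate 4. The *Rac2* to *Rac1* ratio of that library (0.81) lies beside the stimulated *Mcu*-/- libraries (0.91 to 0.96).

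Other partner genes were followed from a list of 8, of which 7 were tested. With zymosan 2 of them had higher and 5 lower levels in *Mcu*-/- cells. This and the following counts between stimulated *Mcu*-/- and WT cells stand beside 62.2% of all genes called (31.8% higher and 30.3% lower, median log2 fold change 0.02), and those with BAPTA-AM beside 12.8% (6.43% higher and 6.33% lower). *Nrros*, which encodes a membrane protein of the endoplasmic reticulum that limits the stability of gp91phox, had 71.8 to 74.6 CPM in stimulated *Mcu*-/-, 130.3 to 142 CPM in stimulated WT and 101 to 110.1 CPM in BAPTA-AM loaded libraries, and 196 to 260.3 CPM in the untreated ones. It was lower with zymosan in both genotypes (log2 fold change −0.61 in WT, edgeR adjusted p = 2.00e-09, and −1.65 in *Mcu*-/-, edgeR adjusted p = 1.26e-14, or −1.59 without untreated replicate 4), lower in *Mcu*-/- than in WT with zymosan (−0.87, edgeR adjusted p = 9.96e-10) and lower with BAPTA-AM (−0.37, edgeR adjusted p = 6.92e-05). The ranges were separate in each of these comparisons.

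*Rap1a*, a small GTPase found with cytochrome b558, had 142 to 146 CPM in stimulated *Mcu*-/- and 181 to 193 CPM in stimulated WT libraries (log2 fold change −0.38, edgeR adjusted p = 0.00012). *Hvcn1*, the voltage-gated proton channel that balances the charge of the oxidase, had 15.8 to 17.2 CPM against 11.3 to 11.9 CPM (0.51, edgeR adjusted p = 0.000603). *Pla2g4a*, cytosolic phospholipase A2, had 34.0 to 39.0 CPM against 29.8 to 34.7 CPM, with overlapping ranges (0.20, edgeR adjusted p = 0.0142), and was lower with BAPTA-AM (−0.20, edgeR adjusted p = 0.0388). In WT with zymosan *Pla2g4a* was higher by 0.39 with TMM and lower by 0.11 with library totals. *S100a8* and *S100a9*, Ca2+-binding partners of the oxidase that neutrophils carry in abundance, had at most 1.61 and 3.42 CPM in any library and were at 0.11 to 0.29 and 0.23 to 0.25 CPM in stimulated *Mcu*-/-, with 2 to 5 counts per library. Both genes are also in the neutrophil marker list, so the neutrophil sums given above, which were lower in stimulated *Mcu*-/- too, include them. Those sums rest mostly on the 1 marker that reached 10 CPM.

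Of 9 other NADPH oxidase family genes, which encode the NOX and DUOX relatives and their regulators, 2 passed the filter and neither was called between the genotypes with zymosan. Of 22 tested activators, inhibitors and relatives of Rac, 5 had higher and 14 lower levels in stimulated *Mcu*-/- cells (median log2 fold change −0.21). *Arhgef7*, a Rac and Cdc42 exchange factor, was the largest rise, from 39.4 ± 1.69 to 67.7 ± 0.958 CPM (0.78, edgeR adjusted p = 3.39e-09). *Racgap1*, a GTPase activator of the dividing cell's midzone, was the largest fall, from 40.2 ± 2.77 to 3.59 ± 0.141 CPM (−3.48, edgeR adjusted p = 3.66e-05). With BAPTA-AM 5 of the 22 were lower and none higher, and *Vav3*, an exchange factor downstream of immune receptors, fell from 113 ± 4.50 to 71.6 ± 4.43 CPM (−0.66). Zymosan in WT raised *Vav3* from 65.8 ± 4.02 CPM (0.78) and lowered *Arhgef7* from 116 ± 3.95 CPM (−1.55).

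Among 16 tested kinases of oxidase assembly, 6 had higher and 8 lower levels in stimulated *Mcu*-/- cells (median log2 fold change −0.14). *Mapk14* (p38α) was at 180 ± 2.87 against 108 ± 8.44 CPM (0.74), and *Pik3cd*, a leukocyte phosphoinositide 3-kinase, at 51.5 ± 1.23 against 138 ± 3.83 CPM (−1.43). With BAPTA-AM 2 of 16 were lower, and *Prkcd*, a protein kinase C that phosphorylates p47phox and p40phox, fell from 376 ± 15.1 to 297 ± 5.67 CPM (−0.34). *Pik3r5* rose in WT with zymosan from 481 ± 21.4 to 933 ± 16.7 CPM (0.95) while *Pik3c3*, the class III kinase, fell from 22.4 ± 1.55 to 11.2 ± 0.306 CPM (−1.01).

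Of 13 tested genes that remove superoxide and peroxide, 9 were called higher and 0 lower with zymosan in WT, and 4 did not pass, beside 32.4% of all genes higher and 36.8% lower. In *Mcu*-/- 10 were called higher and 2 lower, beside 34.3% and 39.4% of all genes. The median log2 fold changes of the list were 0.23 and 0.67, and those of all genes −0.04 and −0.06. With library totals these counts were 5 higher and 7 lower in WT and 6 higher and 6 lower in *Mcu*-/-. That scaling called 9852 and 9877 of the 11707 genes in either direction. *Sod2*, the mitochondrial superoxide dismutase, rose from 135 ± 4.96 to 612 ± 12.6 CPM in WT (2.18) and was lower with BAPTA-AM at 480 ± 8.38 CPM (−0.35). *Prdx1*, a peroxiredoxin, had 4407 ± 64.8 CPM in stimulated *Mcu*-/- against 2137 ± 82.3 CPM in WT (1.04), and *Prdx2* had 96.3 ± 2.34 against 173 ± 5.31 CPM (−0.84). *Txnrd1*, thioredoxin reductase, was the largest rise of this list with zymosan in *Mcu*-/-, from 264 ± 119 to 1224 ± 16.2 CPM (2.21, or 2.58 without untreated replicate 4).

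Of 8 genes listed for NADPH supply, which include enzymes of the pentose phosphate pathway that make no NADPH themselves, 3 had higher and 4 lower levels in stimulated *Mcu*-/- cells (median log2 fold change −0.08). *Taldo1*, transaldolase, which is 1 of those enzymes, was at 514 ± 10.4 against 225 ± 1.04 CPM (1.19), and *G6pdx*, the first enzyme of the pentose phosphate pathway, at 99.0 ± 4.63 against 171 ± 1.93 CPM (−0.79). The zymosan response of *Pgd*, a later enzyme of the same pathway, was larger in *Mcu*-/- than in WT (difference of 0.62, edgeR adjusted p = 0.00606) and that of *G6pdx* was smaller (−0.61, edgeR adjusted p = 0.000117). Without *Mcu*-/- untreated replicate 4 these differences were 0.83 and −0.70. With BAPTA-AM *Me1*, malic enzyme, was higher at 12.8 to 14.7 CPM against 9.28 to 10.96 CPM (0.44), and *Idh1*, isocitrate dehydrogenase, was lower at 80.1 ± 4.00 against 94.8 ± 3.70 CPM (−0.24).

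All 8 transcription factors listed for oxidase genes rose with zymosan in WT with TMM, beside 32.4% of all genes called higher and 36.8% lower. With library totals 6 of the 8 were higher and 1 was lower, where 9852 of the 11707 genes were called in either direction. *Irf1*, an interferon-response factor, rose from 31.7 ± 0.97 to 1334 ± 40.7 CPM in WT (5.39) and from 33.0 ± 5.41 to 1446 ± 11.5 CPM in *Mcu*-/- (5.45, or 5.34 without untreated replicate 4). Between the genotypes with zymosan, 3 of the 8 were higher and 4 lower in *Mcu*-/- cells (median log2 fold change −0.13). *Cebpb*, a leucine zipper factor of myeloid cells, was at 104 ± 3.19 against 252 ± 4.60 CPM (−1.28, edgeR adjusted p = 3.80e-06). With BAPTA-AM 3 of the 8 were lower, and *Irf8*, a factor of the myeloid lineage, fell from 759 ± 57.2 to 585 ± 49.5 CPM (−0.38, edgeR adjusted p = 0.0145). Without *Mcu*-/- untreated replicate 4, which is in neither of the groups compared, all 8 were called lower with BAPTA-AM, and 31.8% of all genes were called in place of 12.8%.

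Across the 20 libraries, the tested genes whose log2 CPM followed *Cybb* most closely were *Klf6*, *Plek* and *Rab11fip1*, each with Pearson's r of 0.999. For *Rac2* they were *Bcat2* (0.997), *Serinc3* (0.996) and *Prkcb* (0.995), for *Ncf1* *Elk3* (0.984), *Arap3* (0.977) and *Actn1* (0.977), and for *Cyba* *Ran* (0.977), *Rpl10* (0.973) and *Rps4x* (0.967). *Rac1* was followed by *Tmem131* (0.978) and *Gng12* (0.977), and *Ncf4* by *Hist1h1d* (0.868), *Mcemp1* (0.868) and *Serhl* (0.863), of which *Hist1h1d* and *Mcemp1* averaged 1.38 and 0.345 CPM. The libraries fall into 5 groups, so these values mostly describe group means, and no test was made of them.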

How the data were processed

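RNA from 20 macrophage libraries was analysed from the 1 table of counts the authors deposited, whole reads per gene symbol without normalization, made with cutadapt, STAR (mm10) and HTSeq per the paper's methods. Tool versions, the annotation and the strand setting are not given in the sources used here. Columns of the *Mcu*-/- zymosan group are numbered 3 to 5 and were mapped to the group. Counts were fitted in R 4.3.3 with edgeR 4.0.16 (filterByExpr, TMM, quasi-likelihood, 1 coefficient per group, 20 libraries), with Benjamini-Hochberg adjustment over 11707 genes, and checked on simulated data. DESeq2 1.42.0, other scalings and filters, the compared groups alone, a replicate block and leaving out each library were alternatives. Ratios were tested by exact two-sided permutation. Genes named from the other lists are the partner genes and, per comparison, the called gene with the largest rise and fall with at least 10 CPM; by likeness, 3 genes per member (prior count 2). The members and lists were chosen with earlier results of these data known. Some genes of these lists are not reported here, and *Cybc1* was not analysed here. CPM intervals rest on 14.4 to 24.0 M counts per library.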

Additional observations from a re-analysis of the deposited data

Results flagged for a closer look

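*Mcu*-/- untreated replicate 4 lay far from replicates 1 to 3 for *Cybb*, where its gap to the next library was 0.923 of the group's range, *Rac2* (0.938), *Nrros* (0.895) and the log2 ratio of *Rac2* to *Rac1* (0.987). These were 4 of 60 groups of values examined, and all 4 concerned this library. Chance alone gives about 1 in 20 for separate groups. The groups here share the same libraries and the ratios reuse the members, so that rate is no yardstick for them.

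The zymosan response differed between the genotypes, by edgeR's interaction term, for *Cyba* (log2 difference −0.33), *Ncf1* (0.48), *Rac1* (−0.21) and *Rac2* (−1.20), and among the partner genes for *Nrros* (−1.05), *Rap1a* (−0.31), *S100a8* (−2.27) and *S100a9* (−2.51), the last 2 at under 4 CPM in every library. It also differed for *Arhgef7* (0.70), *Racgap1* (−3.28), *Mapk14* (0.80), *Pik3cd* (−1.29), *Prdx6* (0.67), *Prdx2* (−0.72), *Pgd* (0.62), *G6pdx* (−0.61), *Elf1* (0.40) and *Cebpb* (−1.41). All of these use the untreated *Mcu*-/- group with replicate 4. Without it each of them passed in the same direction, from −3.66 for *Racgap1* to 0.95 for *Prdx6*. That fit rests on untreated *Mcu*-/- replicates 1 to 3 and does not show what replicate 4 alone gives. Against replicate 4 alone the stimulated *Mcu*-/- mean stood at 1.15 for *Rac2*, 1.13 for *Cyba*, 1.05 for *Rac1* and 1.02 for *Ncf1*. In WT the ratios of stimulated to untreated means were 1.28, 1.22, 1.14 and 0.759, and with 1 library there is no test of this.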

How the results depend on the processing

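The 6 calls between the genotypes with zymosan kept their direction and side of the threshold under DESeq2, DESeq2 size factors, library totals, both count filters, the groups alone and each library left out. With library totals the WT zymosan values of *Cyba*, *Ncf4* and *Rac1* were −0.20, −0.44 and −0.30 and that of *Ncf1* in *Mcu*-/- was −0.44, beside medians of all genes of −0.54 and −0.58, and the number of members called was 1 with BAPTA-AM and 6 with zymosan in *Mcu*-/-. With the compared groups alone these numbers were 4 and 1. With 1 library left out, the members called ranged from 2 to 4 with BAPTA-AM and from 2 to 5 with zymosan in *Mcu*-/-, the highest without *Mcu*-/- untreated replicate 4, and the cause was not tested.

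Genes called with BAPTA-AM were 1494 in all, 3529 with the groups alone and 3712 without that library. Between untreated genotypes they were 41, and 25 with at least 10 counts in every library, 112 with DESeq2, 4 with the groups alone, 26 and 22 without WT untreated replicate 1 and 2, and 391 without *Mcu*-/- untreated replicate 4. For the difference of responses they were 4122, and 7039 without the latter.

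With 1 library left out, the differences in the log2 ratio of *Cybb* to *Cyba* ranged from 1.78 to 1.84 (WT zymosan), 0.59 to 0.65 (genotypes with zymosan), −0.17 to −0.14 (BAPTA-AM) and 2.11 to 2.40 (*Mcu*-/- zymosan). Those of *Ncf1* to *Ncf4* ranged from −0.46 to −0.43 (WT zymosan) and 0.62 to 0.67 (genotypes), and those of *Rac2* to *Rac1* from 0.16 to 0.17 (WT zymosan), −1.22 to −1.19 (genotypes) and −0.077 to −0.049 (BAPTA-AM). Directions held, and in 51 of these cases the adjusted exact p rose over 0.05, where fewer libraries also raise the smallest p possible. Over all ratio comparisons, also those that did not pass with all libraries, the side of the threshold stayed in 72 cases. For *Cybb* to *Cyba* with zymosan in *Mcu*-/- the adjusted exact p was 0.111 to 0.15 whichever library was left out.

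With the replicate number as a block, 6, 2, 4, 2, 0 and 4 members were called, as without it, and 6700, 1158, 7899, 8071, 31 and 3367 genes (genotypes with zymosan, BAPTA-AM, zymosan in WT, zymosan in *Mcu*-/-, untreated genotypes, difference of responses). Deviations of same-numbered libraries correlated between −0.055 and 0.061, and not every library correlated best with its own number, so the block is no evidence of pairing.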
